A study of Mus musculus with 4 samples.

Results

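Axon guidance genes were followed in mouse pancreatic tumours as 73 genes of the 32285 in the count tables, taken by symbol alone: class 3 to 7 semaphorins, plexins, neuropilins, Slits, Robos, A and B ephrins, Eph receptors, netrins and Unc5 receptors. These ligands steer growing axons by attracting or repelling them, and the same pairs act on vessels, immune cells and tumours. Semaphorins signal through plexins, often with a neuropilin as coreceptor, Slits signal through Robos, netrins through Dcc and Unc5 receptors, and ephrins are membrane-bound ligands of the Eph tyrosine kinases. In pancreatic ductal cancer, changes in the SLIT and ROBO genes are a known feature of human tumours. The pattern also took in 3 antisense transcripts (Plxna4os1, Plxna4os2 and Plxna4os3) and Unc50 and Unc5cl, neither of which is taken here as a netrin receptor.

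An orthotopic graft of the KPC-4545 or the KPC-3403 line in C57BL/6J mice gave each tumour, which was left untreated and taken on day 13. KPC lines come from a widely used mouse model of pancreatic ductal cancer. Each line gave 1 enriched library, sorted to be negative for CD45, CD31, EPCAM and TER119, and 1 whole library of unsorted cells. How many tumours were pooled, and the age of the mice, are not given in the sources used here. Each line and preparation has 1 library, so p-values measure the spread between these libraries, which may be technical.

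After filtering, 1495 cells were kept in the enriched KPC-4545 library, 526 in whole KPC-4545, 2467 in enriched KPC-3403 and 1095 in whole KPC-3403, with a median of 11380, 3594, 16314 and 4119 UMIs (counted RNA molecules) per cell. Enriched KPC-4545 shared 151 barcodes of at least 500 UMIs with whole KPC-3403, against 9.09 by chance, and 134 of these held under 10% of the UMIs of their partner. Such low copies were removed from all libraries (133 from enriched KPC-4545 and 8 from each KPC-3403 library), and were kept in an alternative analysis. Of 25 clusters, those led by fibroblast, mesothelial or pericyte and smooth muscle markers were called stromal and those led by epithelial or tumour markers tumour. The stromal class had 58, 15, 1686 and 67 cells in the 4 libraries in the order above and the tumour class 370, 55, 651 and 253. A further 5 clusters (1212 cells) stayed unnamed: in clusters 2, 6 and 18 no list stood apart, and clusters 7 and 21 were shallow with no marker among their 10 leading genes.

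The class names were checked against their markers. The 12 fibroblast markers summed to 37000, 20800 and 23600 CPM (UMI counts scaled to the same total in each sum of cells) in stromal cells of the 2 enriched libraries (KPC-4545, KPC-3403) and whole KPC-3403, against 705, 437 and 200 CPM in tumour cells of the same libraries. The 15 epithelial markers summed to 292, 564 and 595 CPM in stromal cells and to 4760, 10000 and 13200 CPM in tumour cells. Epcam, which the sort selected against, had 4 UMIs in all enriched KPC-4545 tumour cells, where Krt18 had 26204. Tumour cells of whole KPC-4545, tested only in comparisons among tumour cells, had 10900 CPM of the epithelial and 3160 CPM of 8 acinar markers. The acinar markers summed to 8.72, 13.3 and 443 CPM in tumour cells of the 3 libraries above. The 9 endothelial markers summed to 44.9, 68.7 and 457 CPM in the stromal cells of those 3 libraries. Pecam1 or Cdh5 was seen in 0 of 58, 28 of 1686 and 7 of 67 of these cells, and in 5 of 15 in whole KPC-4545. Whole KPC-4545, with 15 stromal cells, was left out of the comparison of both classes, which so rests on 3 libraries. Values below are in the order enriched KPC-4545, enriched KPC-3403, whole KPC-3403 wherever 3 are given for a class, and adjusted p-values come from the same fit.

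Guidance genes were on both sides of the stromal and tumour divide. Of the 73 genes, 56 passed the filter on low counts, and 18 of them were higher in stromal cells and 7 higher in tumour cells (edgeR quasi-likelihood test with the library as a block, Benjamini-Hochberg adjusted p under 0.05 over 13437 genes). Over all genes tested 19.9% passed, 12.2% as higher in stromal cells and 7.68% as higher in tumour cells, against 44.6%, 32.1% and 12.5% of the guidance genes. Their median log2 difference, stromal over tumour, was 0.87, against -0.06 over all genes tested. Among the 18, Epha3, Ephb1, Plxnc1 and Sema3d had no tumour UMI, so they passed the filter through stromal counts alone and their direction was fixed. Robo1, Sema3g, Unc5a and Ntn3, also among the 18, had at most 0.593 CPM in each tested tumour sample. Sema4d and Sema4f, among the 7, had at most 0.885 CPM in each tested stromal sample. These genes too entered through the class where they are high, so their direction was largely set by the filter. The same filter acted on all genes tested. By level alone, 21 of the 56 were higher in all 3 stromal samples than in any of the 3 tumour samples (21.9% of all genes tested) and 11 were lower in all of them (17.9%). With the unnamed clusters given to the class that their markers scored highest for, 1 member was higher in stromal cells and 0 were lower. That alternative took the stromal class of enriched KPC-4545 to 754 cells, against 58, mostly with clusters 2 and 6, in which the collagen gene Col1a1 was at 55.1 and 128 CPM, against 9570 CPM in the 58 cells. Without enriched KPC-3403 there were 4 and 2, out of 40 tested. In the 15 stromal and 55 tumour cells of whole KPC-4545, which were not tested, Ephb3 went the other way (4.12 CPM, 1 UMI, in stromal and 7.53 CPM in tumour cells), Ephb2 hardly differed (8.24 and 8.47 CPM) and Epha3, Ephb1 and Plxnc1 had no UMI in either class. The other called members lay on the side of their call there. No UMI of Epha10, Robo3, Unc5d, Sema5b or Plxna4os3 was counted in stromal or tumour cells.

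**Figure D1:**
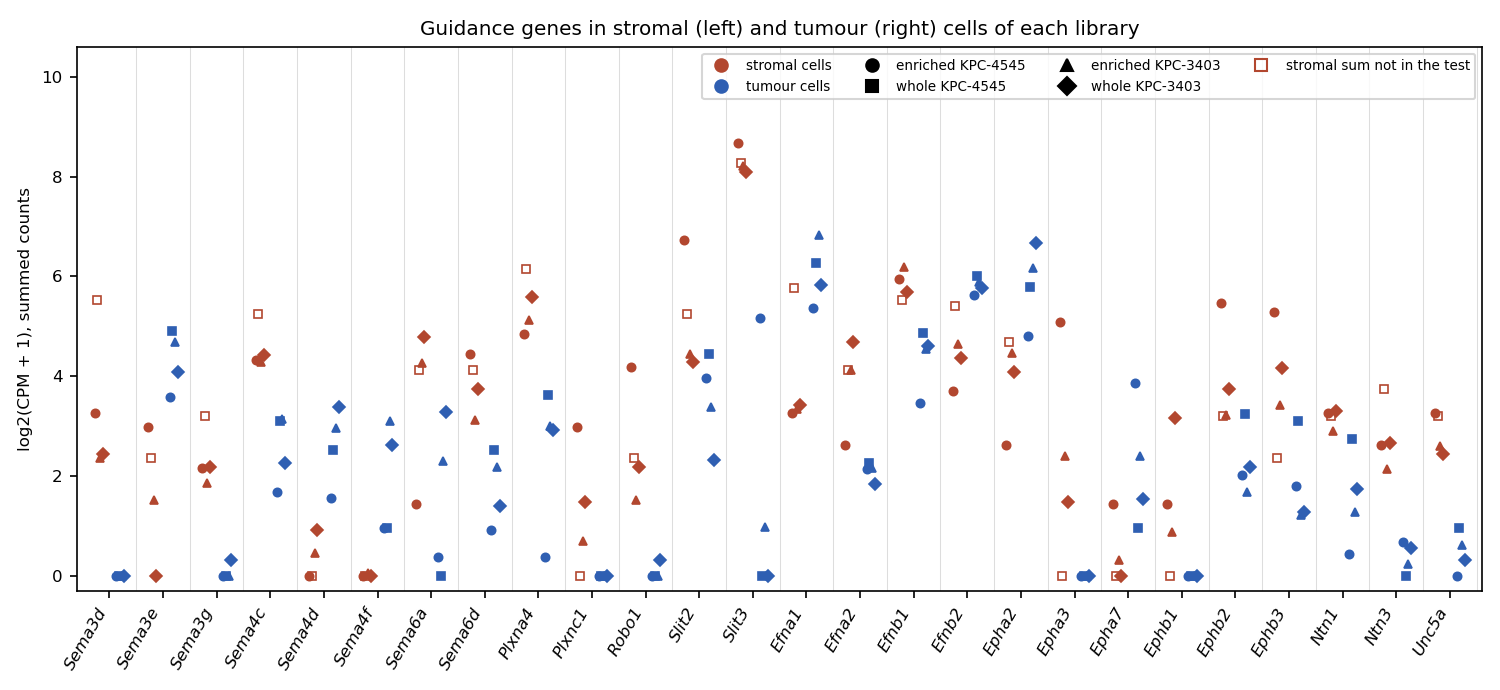
Level of 26 guidance genes as log2(CPM + 1) of summed counts in stromal cells (red, left) and tumour cells (blue, right); each point is 1 library, shown by its symbol, and open squares mark the 15 stromal cells of whole KPC-4545, which were not tested. Slit3 reaches 406 CPM in stromal cells, and Epha3, Ephb1, Plxnc1 and Sema3d stand at 0 in all tumour samples.

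Slit2 was higher in stromal cells, and Slit3 had higher levels there in every library but missed the threshold of the test. Slit3, a secreted Robo ligand, had 406, 295 and 273 CPM in stromal cells, against 34.9, 0.976 and 0 CPM in tumour cells. The classes did not overlap, and the untested 15 stromal cells of whole KPC-4545 also had 309 CPM, against 0 in its tumour cells. The log2 difference of 6.96 ± 1.73 (SE, n = 3 libraries) missed the threshold with an adjusted p of 0.0519. It passed in 12 of 21 alternative analyses, among which leaving out whole KPC-4545 repeats the main fit. Without enriched KPC-4545 it was 8.89 (adjusted p = 8.89e-05), and without enriched KPC-3403 5.85 (adjusted p = 0.462). The stromal levels differed little between libraries and the tumour levels much, from 589 UMIs in enriched KPC-4545 to 0 in both whole libraries. Slit2, the other Slit with a sizeable count, had 105, 20.9 and 18.6 CPM in stromal cells and 14.7, 9.49 and 4.01 CPM in tumour cells, a log2 difference of 1.97 ± 0.39 (adjusted p = 0.0137). Slit1 stayed at or under 1.77 CPM in both classes.

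Robo1, a Slit receptor, had 17.3, 1.86 and 3.54 CPM in stromal cells, or 10, 54 and 4 UMIs, against 0, 0 and 0.236 CPM in tumour cells. Over the 3 libraries that is 68 stromal UMIs against 1 tumour UMI, a ratio of 71.7 with a 95% counting interval from 12.4 to 2870 (adjusted p = 0.0135). Robo4, the Robo of endothelial cells, was counted in the stromal class of the whole libraries alone, with 15 UMIs in KPC-4545 and 13 in KPC-3403. Those are the libraries whose stromal class held Cdh5, with 47 and 48 UMIs, against 0 in both enriched libraries, and the part of endothelial cells was not tested. Robo2 had at most 0.885 CPM in any stromal or tumour sample.

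Slit3 was seen in most stromal cells. It had a UMI in 75.9%, 88.0% and 79.1% of stromal cells, against 62.2%, 1.38% and 0% of tumour cells. Median depths were 6968, 16668 and 14225 UMIs per stromal cell and 47388, 15915 and 12575 UMIs per tumour cell. Thinning every cell to 1000 UMIs dropped 5, 23 and 1 stromal and 5, 20 and 11 tumour cells as too shallow, and gave shares of 37.7%, 25.9% and 25.8% in stromal cells and 3.29%, 0.475% and 0% in tumour cells. Lymphocytes, which should lack Slit3, had it in 0 of 658 T and B cells, for which 3 counts would be 0.456%. All of these came from the whole libraries, so they give no background share for the enriched ones. In barcodes of at most 100 UMIs, taken as free RNA, Slit3 stood at 77.6 CPM in enriched KPC-4545, 125 in enriched KPC-3403 and 35.1 in whole KPC-3403. The part of free RNA in the 34.9 CPM of enriched KPC-4545 tumour cells was not tested.

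**Figure D2:**
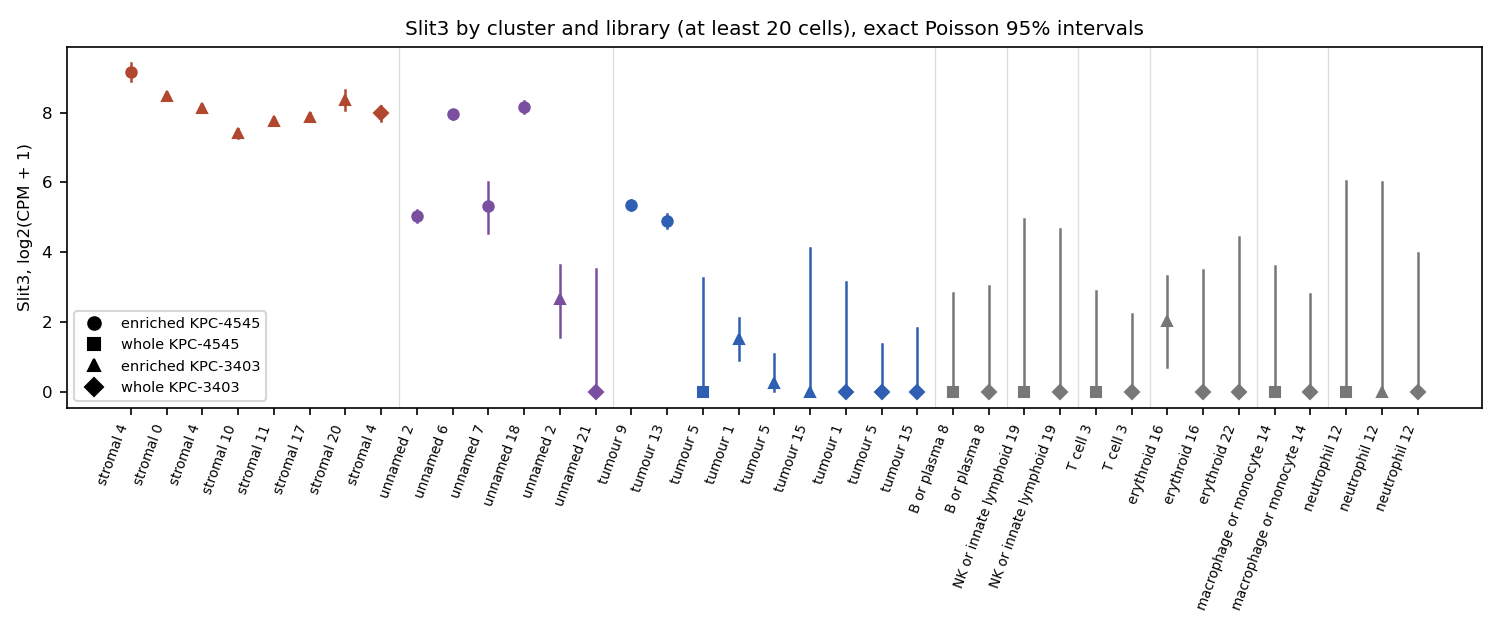
Slit3 as log2(CPM + 1) in each cluster with at least 20 cells of a library (symbols), with exact Poisson 95% intervals for counting error. All 8 stromal samples lie at 169 CPM or more, tumour clusters 9 and 13 of enriched KPC-4545 at 40.2 and 28.8 CPM, and the other tumour clusters at or below 1.82 CPM.

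Slit3 differed among the unnamed clusters of enriched KPC-4545. Clusters 6 and 18, led by Neat1 and by Aspm with a median of 13.9% and 14.5% mitochondrial UMIs per cell, had 248 and 286 CPM of Slit3, and cluster 2, led by Pdgfrl, had 31.8 CPM. Tumour clusters 9 and 13 of that library, with a median of 1.5% and 1.2% mitochondrial UMIs, lay near cluster 2. Nrp1, a semaphorin coreceptor, was at 136 CPM in cluster 2 and at 159 CPM in cluster 6. In clusters 2, 6 and 18 Col1a1 was at 55.1, 128 and 16.2 CPM and Dcn, another fibroblast matrix gene, at 25.1, 6.55 and 4.33 CPM, against 9570 and 5370 CPM in stromal and 7.83 and 7.24 CPM in tumour cells of that library. The keratin gene Krt18 was at 482, 221 and 588 CPM in these clusters, against 81.1 CPM in stromal and 1550 CPM in tumour cells. The values of these clusters enter no test above.

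Promoters are shown for chosen genes on both sides of the comparison. On the stromal side they are Slit3, which missed the threshold, and the Eph receptor Epha3. On the tumour side they are the ephrin Efna1 with its 2 listed starts and the Eph receptor Epha2, though other members, such as Sema4f, differed more there. Each window, which covers the start of the transcript's first exon, runs from 250 bases before to 50 after the start, 5′ to 3′ on the gene's strand (RefSeq, GRCm38.p6). Capitals mark GGGCGG or its reverse complement. In GENCODE M21 on GRCm38 the Slit3 gene spans 35121224 to 35708507 on the plus strand of chromosome 11.
Slit3, chr11:35121206-35121505, plus strand: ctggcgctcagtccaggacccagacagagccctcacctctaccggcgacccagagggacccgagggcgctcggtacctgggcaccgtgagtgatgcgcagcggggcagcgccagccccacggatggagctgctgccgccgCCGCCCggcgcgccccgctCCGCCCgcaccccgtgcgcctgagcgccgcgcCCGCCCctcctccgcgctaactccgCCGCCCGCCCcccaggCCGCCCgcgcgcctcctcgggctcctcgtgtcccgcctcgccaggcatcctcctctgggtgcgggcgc
Epha3, chr16:63864126-63864425, minus strand: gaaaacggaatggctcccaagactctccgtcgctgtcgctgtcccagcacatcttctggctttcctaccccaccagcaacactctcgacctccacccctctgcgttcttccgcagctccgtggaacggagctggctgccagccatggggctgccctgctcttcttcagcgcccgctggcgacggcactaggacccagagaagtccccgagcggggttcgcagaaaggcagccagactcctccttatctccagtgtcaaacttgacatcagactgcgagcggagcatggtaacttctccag
Efna1, start 1, chr3:89280902-89281201, minus strand: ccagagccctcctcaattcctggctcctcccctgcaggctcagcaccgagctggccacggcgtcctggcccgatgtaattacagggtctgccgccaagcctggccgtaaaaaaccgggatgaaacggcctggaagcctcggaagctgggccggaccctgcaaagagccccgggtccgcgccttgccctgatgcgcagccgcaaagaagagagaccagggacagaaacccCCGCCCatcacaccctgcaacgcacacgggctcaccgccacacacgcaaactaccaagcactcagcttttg
Efna1, start 2, chr3:89279596-89279895, minus strand: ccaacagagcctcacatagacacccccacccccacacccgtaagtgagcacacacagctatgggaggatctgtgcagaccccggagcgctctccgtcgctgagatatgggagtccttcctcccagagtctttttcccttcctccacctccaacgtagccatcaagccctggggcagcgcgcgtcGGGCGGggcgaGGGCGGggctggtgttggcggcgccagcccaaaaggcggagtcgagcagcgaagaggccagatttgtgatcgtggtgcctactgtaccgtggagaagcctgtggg
Epha2, chr4:141300971-141301270, plus strand: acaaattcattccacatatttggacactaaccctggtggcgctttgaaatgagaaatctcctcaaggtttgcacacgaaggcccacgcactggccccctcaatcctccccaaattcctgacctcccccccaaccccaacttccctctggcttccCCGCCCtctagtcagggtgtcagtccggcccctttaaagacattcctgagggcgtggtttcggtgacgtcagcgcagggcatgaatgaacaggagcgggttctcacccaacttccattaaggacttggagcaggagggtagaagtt
The Slit3 promoter held 6 matches, some overlapping, start 1 of Efna1 held 1 and start 2 held 2, Epha2 held 1 and Epha3 held 0. RefSeq listed 17 promoters for 15 of the 18 stromal-higher genes and 11 for the 7 tumour-higher genes. GGGCGG on either strand was in 10 of 17 and in 8 of 11, and in 35.7% of all 32851 promoters. CACCTG was in 5 of 17, in 2 of 11 and in 20.2% of all, TGANTCA in 1 of 17, in 1 of 11 and in 7.81%, and TATAAA in 1 of 17, in 1 of 11 and in 13.6%. The median CpG ratio, a measure of CG pairs in the window, was 0.659 for the stromal-higher and 0.579 for the tumour-higher promoters, against 0.384 over all. All promoters include those of genes too low to test, and the part of CG content in the GGGCGG counts was not tested. These are counts of letters in a window.

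Among ephrins, Efna1 and Efnb2 were higher in tumour cells and Efnb1 and Efna2 in stromal cells. Efna1, a ligand of A-type Eph receptors, had 8.63, 9.14 and 9.73 CPM in stromal cells, against 40.2, 113 and 56.1 CPM in tumour cells. In these 3 libraries the classes did not overlap, with a log2 difference of -2.97 ± 0.38 (adjusted p = 0.00262). The untested stromal cells of whole KPC-4545 had 53.6 CPM (13 UMIs), above the 40.2 CPM of enriched KPC-4545 tumour cells, against 76.2 CPM in the tumour cells of their own library. Efna1 had a UMI in 5.17%, 12% and 11.9% of stromal cells, against 69.7%, 55.5% and 37.9% of tumour cells and 0.456% of lymphocytes. Thinned to 1000 UMIs these shares were 0%, 1.08% and 0% in stromal cells and 1.92%, 11.1% and 5.79% in tumour cells. Efnb2, a ligand of B-type receptors and of Epha4, had 12.1, 23.9 and 19.5 CPM in stromal cells and 48.8, 58.2 and 53.3 CPM in tumour cells (log2 difference -1.59 ± 0.35, adjusted p = 0.0211). The call of Efnb2 was lost without either KPC-3403 library.

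Efnb1 ran the other way, with 60.4, 71.5 and 50.4 CPM in stromal cells and 9.96, 22.3 and 23.4 CPM in tumour cells (log2 difference 1.72 ± 0.37, adjusted p = 0.0195). Efna2 had 5.18, 16.5 and 24.8 CPM in stromal cells, the lowest of which is 3 UMIs, and 3.38, 3.46 and 2.59 CPM in tumour cells (log2 difference 2.14 ± 0.58, adjusted p = 0.0423). For both genes every stromal level lay above every tumour level. The call of Efna2 was lost without either KPC-3403 library, and that of Efnb1 without enriched KPC-3403. Efna5, Efna4 and Efna3 did not pass, and Efnb3 was too low to test.

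**Figure D3:**
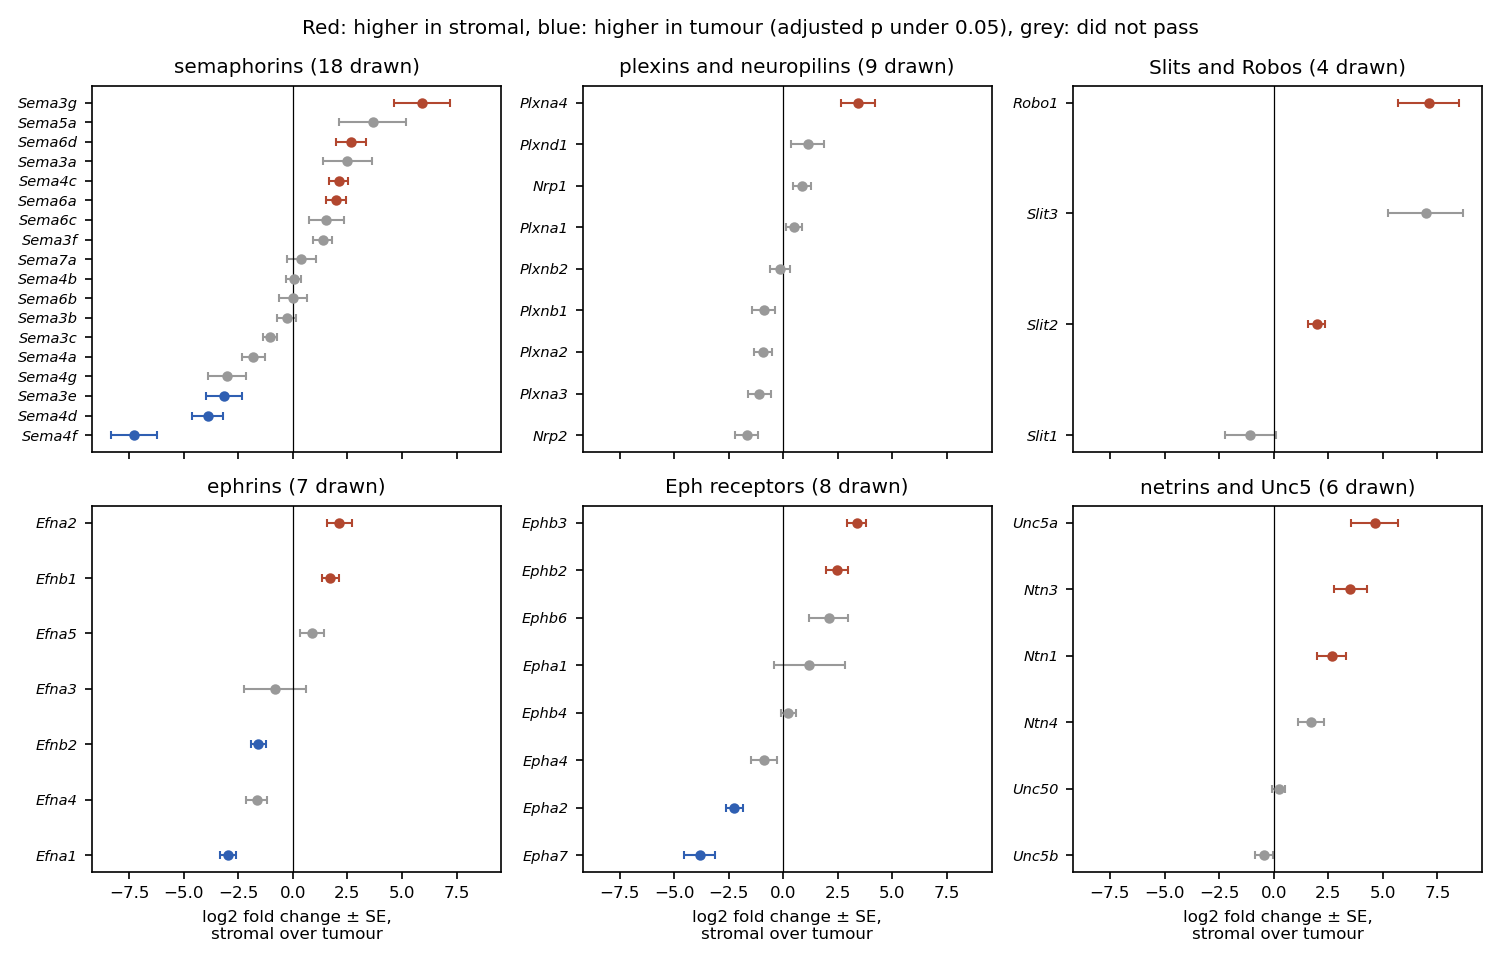
Log2 difference, stromal over tumour, with its SE for the guidance genes that passed the filter on low counts and had a UMI in tumour cells. Positive values are higher in stromal cells; red and blue points passed the test and grey points did not.

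Eph receptors split by class. Epha2, an ephrin-A receptor often found in carcinomas, had 5.18, 21.0 and 15.9 CPM in stromal cells of the same libraries, against 27.1, 71.4 and 101 CPM in tumour cells, a log2 difference of -2.25 ± 0.39 (adjusted p = 0.00829). Every stromal level lay below every tumour level. Epha7 had 1.73, 0.241 and 0 CPM in stromal cells, or 1, 7 and 0 UMIs, and 13.5, 4.26 and 1.89 CPM in tumour cells (log2 difference -3.82 ± 0.71, adjusted p = 0.0111). Both Efna1 and Epha2 were thus higher in the tumour class.

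The B-type receptors Ephb2 and Ephb3 were higher in stromal cells. Ephb2 had 43.2, 8.28 and 12.4 CPM in stromal cells and 3.03, 2.22 and 3.54 CPM in tumour cells (log2 difference 2.46 ± 0.52, adjusted p = 0.0177). Ephb3 had 38.0, 9.65 and 16.8 CPM in stromal cells and 2.49, 1.33 and 1.42 CPM in tumour cells (log2 difference 3.36 ± 0.43, adjusted p = 0.0026). For both, enriched KPC-4545 stromal cells were the highest of the tested samples, the call of Ephb2 was lost without enriched KPC-3403, and neither gene had a UMI in 658 lymphocytes. Ephb4, the receptor with the highest mean in stromal cells, had 24.2, 18.1 and 32.7 CPM there and 11.7, 23.1 and 25.9 CPM in tumour cells, and did not pass (adjusted p = 0.689).

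Epha3, a receptor of ephrin-A ligands, had 0 UMIs in the 4 tumour samples. Stromal cells held 19, 123 and 2 UMIs, or 32.8, 4.24 and 1.77 CPM. Against a floor of 3 UMIs per tumour sample, Epha3 was at least 184-fold higher in enriched KPC-4545 stromal cells and at least 15.9-fold higher in enriched KPC-3403 ones (adjusted p = 0.00619). Its stromal share of cells with a UMI was 20.7%, 5.52% and 2.99%, against 0% of tumour cells and 1 of 658 lymphocytes. Ephb1 also had no tumour UMI, and its 1, 24 and 9 stromal UMIs put it at least 3.11-fold higher in enriched KPC-3403 and at least 11.3-fold higher in whole KPC-3403 (adjusted p = 0.036). The call of Ephb1 was lost in 8 of 14 alternative analyses that tested it, 1 of them without whole KPC-3403.

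Semaphorins, secreted or membrane-bound repellents, gave 5 genes higher in stromal cells and 3 higher in tumour cells of 19 tested. Those are 26.3% and 15.8%, against 12.2% and 7.68% of all genes tested. Sema4c, a transmembrane semaphorin that binds plexin B2, had 19.0, 18.5 and 20.3 CPM in stromal cells, against 2.20, 7.80 and 3.77 CPM in tumour cells (log2 difference 2.11 ± 0.44, adjusted p = 0.0175). Sema6d had 20.7, 7.72 and 12.4 CPM in stromal cells and 0.89, 3.55 and 1.65 CPM in tumour cells (log2 difference 2.65 ± 0.69, adjusted p = 0.0372). Sema6a had 1.73, 18.1 and 26.5 CPM in stromal cells and 0.297, 3.90 and 8.73 CPM in tumour cells (log2 difference 1.97 ± 0.46, adjusted p = 0.0254). Stromal and tumour levels of Sema6a overlapped across libraries, the stromal level was the higher one within each, and its call was lost in 14 of 21 alternative analyses.

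The secreted Sema3d and Sema3g were low and higher in stromal cells. Sema3d had 5, 119 and 5 stromal UMIs and 0 in all tumour samples, at least 48.5-fold, 15.4-fold and 6.25-fold higher in stromal cells of the 3 libraries (adjusted p = 0.0108). Sema3g had 82 stromal UMIs against 1 tumour UMI, a ratio of 86.4 with a 95% counting interval from 15.1 to 3460 (adjusted p = 0.0204). Neither Sema3d nor Slit3 was seen in lymphocytes.

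Sema3e, a ligand of plexin D1, was higher in tumour cells, with 6.91, 1.86 and 0 CPM in stromal cells and 10.9, 24.6 and 16 CPM in tumour cells (log2 difference -3.16 ± 0.83, adjusted p = 0.0439). Its call was lost without enriched KPC-3403 and with another scaling of library sizes. Sema4d, a ligand of plexin B1, had 0, 0.379 and 0.885 CPM in stromal cells and 1.96, 6.74 and 9.43 CPM in tumour cells (log2 difference -3.90 ± 0.71, adjusted p = 0.0103). Sema4f had 1 stromal UMI against 124 tumour UMIs, a tumour over stromal ratio of 118 with a 95% counting interval from 20.7 to 4680 (adjusted p = 0.00415). Sema5a had the highest mean among semaphorins in stromal cells, with 38.0, 41.2 and 46.0 CPM, against 27.9, 1.95 and 0 CPM in tumour cells, and did not pass (adjusted p = 0.172). Sema3c, a secreted neuropilin ligand, had the highest mean in tumour cells, with 48.3, 39.1 and 22.1 CPM in stromal cells and 86.4, 62.4 and 61.6 CPM in tumour cells (adjusted p = 0.0745).

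Of the semaphorin receptors, 2 of 10 plexins and neuropilins tested were higher in stromal cells and 0 were lower. That is 20.0% called, against 19.9% of all genes tested, so the family lay at the background share. Plxna4, a class A plexin, had 27.6, 34.0 and 46.9 CPM in stromal cells, against 0.297, 7.01 and 6.60 CPM in tumour cells (log2 difference 3.41 ± 0.78, adjusted p = 0.0334). Its call was lost without enriched KPC-3403. The stromal and tumour levels did not overlap. Reads of Plxna4 and its antisense transcripts may not be told apart where counting ignores strand, and Plxna4os1 reached 2.36 CPM in whole KPC-3403 tumour cells. Plxnc1, the receptor of Sema7a, had 4, 18 and 2 stromal UMIs and 0 in all tumour samples, at least 38.8-fold higher in enriched KPC-4545 stromal cells and at least 2.33-fold higher in enriched KPC-3403 ones (adjusted p = 0.0374). It had a UMI in 19 of 658 lymphocytes.

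Plxnb2, a receptor of class 4 semaphorins, had the highest mean of its family in both classes and did not pass, with 74.2, 73.9 and 66.3 CPM in stromal cells and 32.7, 91.3 and 134 CPM in tumour cells (log2 difference -0.13 ± 0.45, adjusted p = 0.866). Nrp1 had 55.3, 13.4 and 36.3 CPM in stromal cells and 27.3, 13.8 and 9.67 CPM in tumour cells (adjusted p = 0.19). Nrp2 had 22.4, 4.76 and 24.8 CPM in stromal cells and 56.8, 39.1 and 29.7 CPM in tumour cells (adjusted p = 0.0718). The neuropilins, named for their role as coreceptors after their values were seen, so gave opposite signs, and neither difference passed the test.

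The netrins and genes named Unc5, among them Unc50, gave 3 genes higher in stromal cells of 6 tested and 0 lower. Ntn1, the best known netrin, had 8.63, 6.45 and 8.85 CPM in stromal cells and 0.356, 1.42 and 2.36 CPM in tumour cells (log2 difference 2.65 ± 0.67, adjusted p = 0.0335). Ntn3 had 5.18, 3.38 and 5.31 CPM in stromal cells and 0.593, 0.177 and 0.472 CPM in tumour cells (log2 difference 3.51 ± 0.75, adjusted p = 0.0194). Both netrin calls were lost without enriched KPC-3403, and that of Ntn1 in 8 of 20 alternative analyses. Unc5a, a repellent netrin receptor, had 8.63, 5.10 and 4.42 CPM in stromal cells, or 5, 148 and 5 UMIs, and 0, 0.532 and 0.236 CPM in tumour cells (log2 difference 4.62 ± 1.08, adjusted p = 0.026). Unc50 had the highest mean in both classes and did not pass, with 53.5, 44.9 and 49.5 CPM in stromal cells and 30.5, 41.3 and 50.2 CPM in tumour cells (adjusted p = 0.65).

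Other genes of the pathway were read from a pair of lists. Of 35 further guidance receptors, ligands and adhesion molecules, 26 were tested, and 10 were higher and 2 lower in stromal cells (38.5% and 7.69% of those tested, against 12.2% and 7.68% of all genes). Flrt2, a ligand of Unc5 receptors, had 86.3, 185 and 111 CPM in stromal cells and 1.42, 9.49 and 8.73 CPM in tumour cells (log2 difference 4.51 ± 0.51, adjusted p = 0.00162). Chl1, an adhesion molecule that binds neuropilin 1, had 185, 152 and 131 CPM in stromal cells and 0, 1.77 and 0.707 CPM in tumour cells (log2 difference 7.97 ± 1.15, adjusted p = 0.0104). Kdr, a VEGF receptor, had 12.1, 10.3 and 69.9 CPM in stromal cells and 0.0593, 0 and 0 CPM in tumour cells (adjusted p = 0.000716), and was highest in whole KPC-3403, where the endothelial markers were too, whose part in it was not tested. Ryk, a Wnt receptor in axon guidance, was also higher in stromal cells (log2 difference 1.48 ± 0.29, adjusted p = 0.0138). Alcam and the receptor Met were lower in stromal cells, with log2 differences of -3.47 ± 0.40 (adjusted p = 0.00177) and -2.37 ± 0.45 (adjusted p = 0.0125).

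Of 62 genes of intracellular guidance signalling, 59 were tested, and 11 were higher and 4 lower in stromal cells (18.6% and 6.78%, against 12.2% and 7.68% of all genes). Rnd1, a small GTPase that binds plexins, had 48.3, 39.7 and 27.4 CPM in stromal cells and 2.37, 2.57 and 1.41 CPM in tumour cells (log2 difference 4.11 ± 0.37, adjusted p = 0.000799). The adaptor Grb10 had 183, 135 and 113 CPM in stromal cells and 0, 0.355 and 0.472 CPM in tumour cells (adjusted p = 0.00152). Fyn, a Src family kinase, and Mical2, an actin-oxidising enzyme of the plexin effector family, were higher in stromal cells by log2 differences of 3.41 ± 0.43 (adjusted p = 0.00246) and 2.20 ± 0.34 (adjusted p = 0.00506). The kinases Pak1 and Pak3 were lower in stromal cells, by log2 differences of -2.36 ± 0.37 (adjusted p = 0.00565) and -3.85 ± 0.45 (adjusted p = 0.00191).

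**Figure D4:**
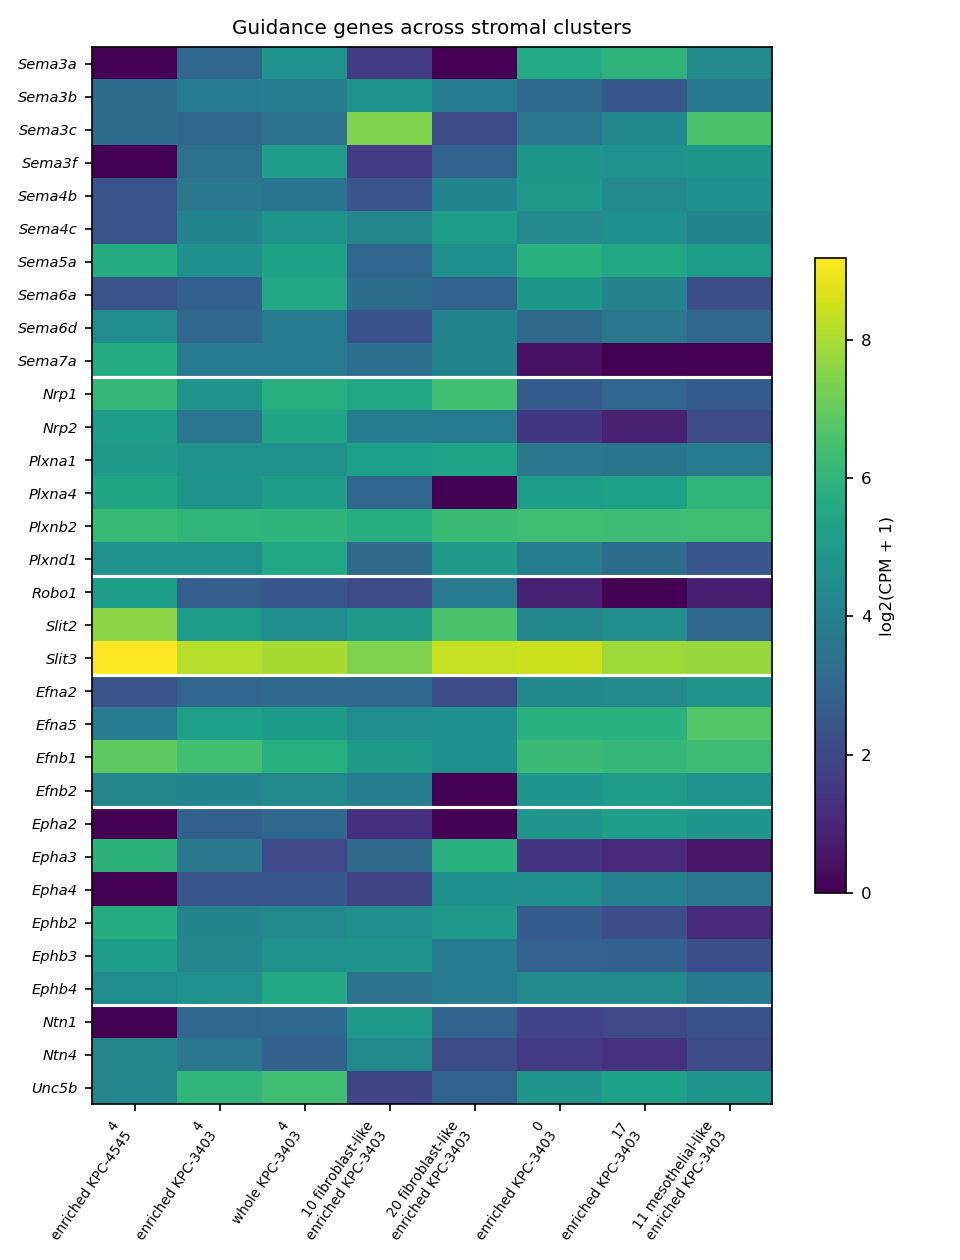
Level as log2(CPM + 1) of the 32 guidance genes that reach 20 CPM in a stromal cluster, for clusters with at least 20 cells of a library; white lines part the gene families. Slit3 is at 169 CPM or more in every column, while Epha3 and Robo1 reach their highest levels in clusters 4 and 20 and Sema3a in clusters 0 and 17.

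Stromal cells were not alike in their guidance genes. The clusters were formed without the 73 genes, and their levels are given as a description. Cluster 4, led by Tagln and Acta2, and the fibroblast-like clusters 10 and 20, led by Sfrp4 and Mmp3, carried Nrp1 at 26.0, 43.1 and 82.7 CPM in enriched KPC-3403. In the same library Nrp1 was at 5.41 CPM in cluster 0, led by Cxcl13 and Saa3, at 6.95 CPM in the cycling cluster 17 and at 5.25 CPM in the mesothelial-like cluster 11. Epha3 was also higher in the first 3 clusters, with 11.8, 8.02 and 56.2 CPM in clusters 4, 10 and 20 and 1.66, 1.16 and 0.477 CPM in clusters 0, 17 and 11, as did Ephb2, with 16.5, 22.0 and 29.8 CPM and 5.34, 3.47 and 1.19 CPM. Sema3a, a neuropilin 1 ligand, ran the other way, with 7.34, 2.0 and 0 CPM in clusters 4, 10 and 20 and 48.1, 61.0 and 19.1 CPM in clusters 0, 17 and 11.

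Epha2 had 6.22, 1.34 and 0 CPM in clusters 4, 10 and 20 and 26.3, 33.2 and 27.0 CPM in clusters 0, 17 and 11. Efna5 was highest in the mesothelial-like cluster 11, at 104 CPM, with 63.0 CPM of Plxna4. Sema3c was high in cluster 10, at 167 CPM, and in cluster 11, at 93.5 CPM, against 3.31 to 18.5 CPM in the other 4. Slit3 ran from 169 CPM in cluster 10 to 359 CPM in cluster 0. Cluster 4 of whole KPC-3403 (42 cells) had 252 CPM of Slit3, 52.3 CPM of Nrp1 and 24.6 CPM of Sema3a.

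The lines were compared for the stromal and tumour difference in a fit with a line by class term, in which KPC-4545 rests on its enriched library. The 15 stromal cells of whole KPC-4545 are outside the fit, and their values are given beside it. Of 59 members tested 3 had a larger and 3 a smaller stromal over tumour ratio in KPC-4545, or 10.2% against 9.46% of all 14444 genes tested (3.86% larger, 5.61% smaller), a share near the background. Slit3 had 406 CPM in stromal against 34.9 CPM in tumour cells in enriched KPC-4545, and 295 against 0.976 and 273 against 0 CPM in the KPC-3403 libraries (log2 difference of ratios -5.62 ± 0.87, adjusted p = 0.0294). Whole KPC-4545 had 309 against 0 CPM. Sema3a had 5.18 CPM (3 UMIs) in stromal against 9.96 CPM in tumour cells of enriched KPC-4545, and 33.5 against 4.35 and 61.0 against 2.59 CPM in the KPC-3403 libraries (-4.84 ± 0.85, adjusted p = 0.00303). Whole KPC-4545 had 41.2 against 1.88 CPM, on the side of KPC-3403. Efna5 had 13.8 CPM (8 UMIs) against 20.9 CPM in enriched KPC-4545, and 56.6 against 17 and 46.0 against 18.6 CPM in KPC-3403 (-2.48 ± 0.59, adjusted p = 0.0107). Whole KPC-4545, with 45.3 against 28.2 CPM, was again higher in stromal cells.

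The 3 with the larger ratio in KPC-4545 were plexins and Sema7a. Plxna4 had 27.6 CPM in stromal against 0.297 CPM in tumour cells of enriched KPC-4545, and 34.0 against 7.01 and 46.9 against 6.60 CPM in KPC-3403 (3.64 ± 0.77, adjusted p = 0.00462). Plxnb2 had 74.2 against 32.7 CPM in enriched KPC-4545, and 73.9 against 91.3 and 66.3 against 134 CPM in KPC-3403 (1.48 ± 0.46, adjusted p = 0.0494). Sema7a, the ligand of plexin C1, had 20.7 against 3.62 CPM in enriched KPC-4545, and 3.28 against 5.77 and 8.85 against 8.96 CPM in KPC-3403 (2.68 ± 0.85, adjusted p = 0.0492). In whole KPC-4545, Plxna4 had 70.1 against 11.3 CPM, Plxnb2 78.3 against 118 CPM, higher in tumour cells as in KPC-3403, and Sema7a 20.6 against 9.41 CPM. When whole KPC-4545 was added by lowering the minimum to 10 cells, 0 of 51 members passed, and DESeq2 called 1 of 59. The fit had 1 residual degree of freedom, and the makeup of the stromal class differed between lines: cluster 0 held 3 of 58 cells in enriched KPC-4545 and 852 of 1686 in enriched KPC-3403, and cluster 4 held 28 and 281.

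Stromal cells of the lines were set side by side in the enriched libraries, with 1 library a line and so no test. Of 56 members with at least 10 UMIs in both together, 11 had a counting interval wholly past 2-fold higher in KPC-4545 and 2 wholly past 2-fold lower, 19.6% and 3.57% against 3.21% and 0.717% of 14219 genes. The 2-fold rule was chosen after the data were seen. Slit2 had 105 CPM in KPC-4545 and 20.9 CPM in KPC-3403, a ratio of 5.04 with a 95% interval from 3.81 to 6.57 for counting error only. Epha3 had a ratio of 7.73 (4.50 to 12.6), Robo1 9.27 (4.21 to 18.4), Nrp1 4.12 (2.78 to 5.91) and Ephb2 5.22 (3.31 to 7.89). Ephb3, Nrp2, Sema7a, Plxnc1, Unc5c and Efna3 were also past 2-fold higher, with ratios from 3.93 to 18.2, of which Plxnc1, Unc5c and Efna3 rest on 3 or 4 UMIs in KPC-4545. Efna5 and Sema3a were past 2-fold lower, with ratios of 0.244 (0.105 to 0.482) and 0.155 (0.0319 to 0.454). Slit3 had a ratio of 1.38 (1.2 to 1.57). The stromal cells of the whole libraries, 15 in KPC-4545 and 67 in KPC-3403, did not follow this for several genes. Epha3 had 0 UMIs in KPC-4545 and 1.77 CPM in KPC-3403 there, Ephb2 8.24 and 12.4 CPM, Ephb3 4.12 and 16.8 CPM and Efna5 45.3 and 46.0 CPM. Slit2 had 37.1 and 18.6 CPM, Nrp1 74.2 and 36.3 CPM, Robo1 4.12 and 3.54 CPM and Sema3a 41.2 and 61.0 CPM. The stromal cells of the enriched libraries also differed in Malat1, at 11700 CPM in KPC-4545 and 4290 CPM in KPC-3403, and in Neat1, at 1320 and 411 CPM. In enriched KPC-4545, 1760 of 3482 barcodes exceeded the mitochondrial limit, against 504 of 3118 in enriched KPC-3403. The part of cell quality in the ratios was not tested.

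Within cluster 4, which had 28 cells in KPC-4545 and 281 in KPC-3403, Slit2 had 190 CPM in KPC-4545 and 31.6 CPM in KPC-3403, a ratio of 6.03 (4.21 to 8.49). Epha3 had 59.2 and 11.8 CPM there (5.03, 2.58 to 9.19), Robo1 33.9 and 5.78 CPM (5.86, 2.29 to 13.3) and Slit3 576 and 281 CPM (2.05, 1.70 to 2.45). Of the 11 members past 2-fold higher above, 8 had an interval above 1 in cluster 4 and 4 stayed wholly past 2-fold. The ratio was lower there for Nrp1 (2.6, 1.44 to 4.41), Ephb2 (3.09, 1.53 to 5.72) and Ephb3 (2.0, 0.835 to 4.15). Cluster 4 holds 28 of the 58 KPC-4545 cells that chose these genes, so these values are no independent check. Sema3a had 0 UMIs in cluster 4 of KPC-4545 and 33 UMIs, or 7.34 CPM, in that of KPC-3403, with an interval of the ratio up to 2.25. Within cluster 4, Malat1 was at 18400 CPM in KPC-4545 and 3750 CPM in KPC-3403, and Neat1 at 2230 and 271 CPM. The part of cell quality was not tested there either. The line, the tumour and the library cannot be told apart here.

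**Figure D5:**
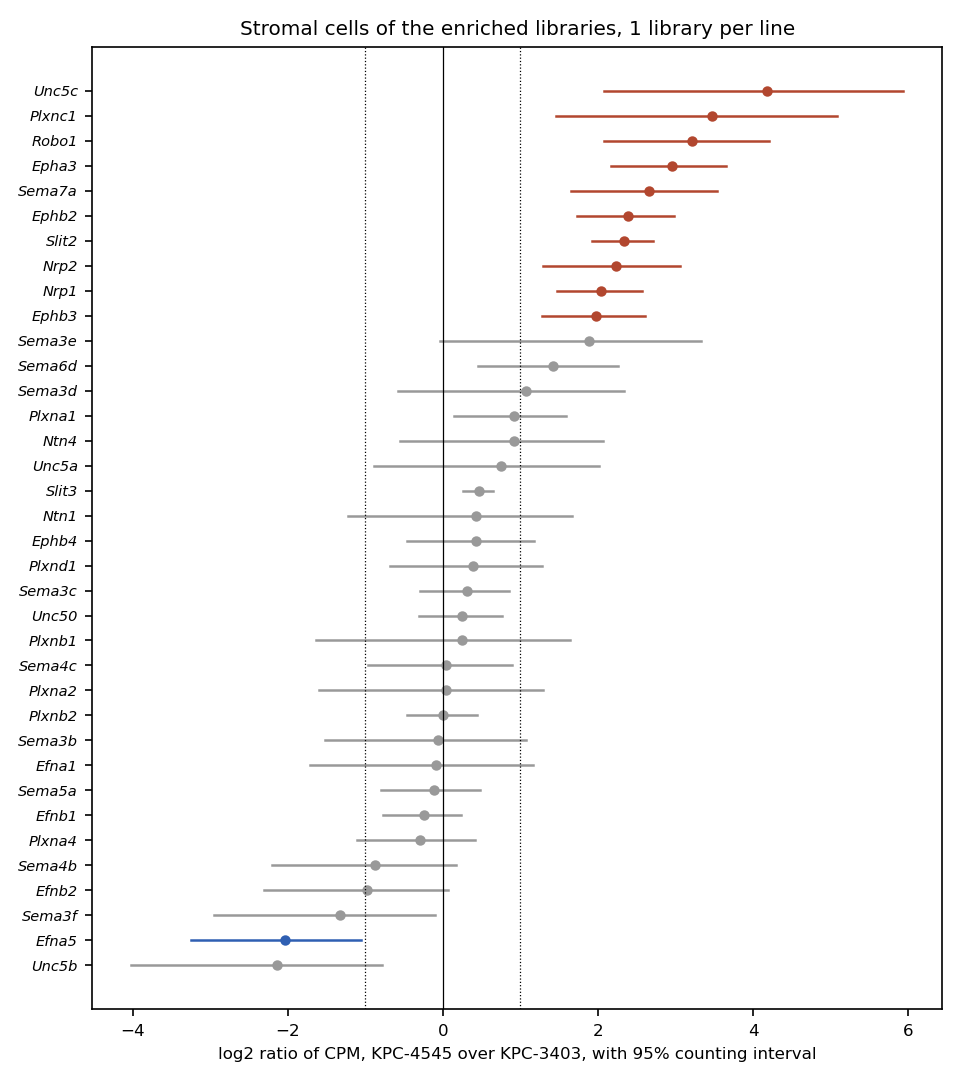
Log2 ratio of CPM in stromal cells of the enriched libraries, KPC-4545 over KPC-3403, with 95% counting intervals, for the 36 members with over 3 UMIs in each; dotted lines mark 2-fold. Red intervals lie past 2-fold higher and the blue one, Efna5, past 2-fold lower in KPC-4545.

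Among tumour cells, in all 4 libraries, 0 of 44 members passed between KPC-4545 and KPC-3403 in edgeR, with 9 under an unadjusted p of 0.05 (of 11997 genes 0.15% passed, 0.108% as higher and 0.0417% as lower, and 1831 had an unadjusted p under 0.05). DESeq2 called 1 member, Sema5a, higher in KPC-4545 (log2 difference 4.73, adjusted p = 0.00144). Sema5a had 27.9 and 9.41 CPM (the latter from 10 UMIs) in enriched and whole KPC-4545 tumour cells, against 1.95 and 0 CPM in the KPC-3403 ones, so the lines did not overlap. In barcodes taken as free RNA, Sema5a stood at 40.8 and 9.40 CPM in enriched and whole KPC-4545. It was at 16.2 and 4.84 CPM in those of KPC-3403, and the part of free RNA was not tested. Between enriched and whole tumour cells 0 of 44 members passed in edgeR, with 4 under an unadjusted p of 0.05 (2 of 11997 genes, or 0.0167%, passed, and 924 had an unadjusted p under 0.05). DESeq2 called Sema4g, lower in enriched cells (log2 difference -4.14, adjusted p = 0.0352), with 0.178 and 9.22 CPM in the enriched and 20.7 and 33.5 CPM in the whole libraries. In enriched and whole KPC-3403, Sema4g had 57.5 and 79.1 CPM in tumour cluster 15 and 11.8 and 11.6 CPM in tumour cluster 5. Cluster 15 held 28 of 651 tumour cells in enriched and 92 of 253 in whole KPC-3403, and the part of this makeup was not tested. Both fits had 1 residual degree of freedom. In simulated data the fit between lines recovered 44% of log2 differences of 2 in genes with a mean over 10 CPM. Tumour cells of whole KPC-4545 held acinar markers at 3160 CPM, whose part in both comparisons was not tested.

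Immune cells of the whole libraries also carried guidance genes, given here as levels with no test. Sema4d, which T cells are known to express, had 98.5 and 124 CPM in T cells of whole KPC-4545 and whole KPC-3403, and 74.1 and 60.1 CPM in B and plasma cells, above the highest tumour level of 9.43 CPM. Sema4d had a UMI in 34.3% and 35.9% of T cells. Its level was 89.75 and 125.7 CPM in NK or innate lymphoid cells (27 and 40 cells) and 42.76 and 124.5 CPM in neutrophils. Sema4a was highest in NK or innate lymphoid cells, at 114.2 and 66.16 CPM. It had 51.6 and 59.9 CPM in macrophages or monocytes, 42.76 and 46.4 CPM in neutrophils and 27.6 and 41.7 CPM in T cells. Nrp1 had 36.3 and 55.5 CPM in T cells and 45.5 and 25.9 CPM in macrophages or monocytes, with 0 UMIs in B and plasma cells of both lines. Plxnb2 had 72.8 and 59.9 CPM in macrophages or monocytes and 0 in T cells. Slit3 had no UMI in any of these immune classes.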

How the data were processed

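Droplet single-cell RNA libraries (10x 5' chemistry, per the labels' protocols) were deposited as UMI counts per gene and barcode, not normalized. The submitters' processing notes name mm10 and Cell Ranger 6.1.1, whereas Cell Ranger 4 is named per the file headers. Whether counting used strand is not given in the sources used here.

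Cells needed 500 UMIs, 250 genes, at most 20% mitochondrial UMIs and, up to 5000 UMIs, a profile unlike that of barcodes of at most 100 UMIs (1000 Monte Carlo draws, false discovery rate 0.01). The highest Scrublet doublet scores, 0.8% per 1000 cells (22, 2, 51 and 10 cells) and barcodes with under 10% of the UMIs of a copy in another library were removed. Clustering used scanpy 1.11.5 and leidenalg 0.10.2 (2000 variable genes without the members, 30 components, 15 neighbours, resolution 1). A cluster took the lineage whose markers scored at least 1.5 times the next, with 3 markers in 10% of its cells. The copy rule and the naming score were chosen after clusters had been seen, and the members, lists and tests with earlier results of these data known.

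UMI sums per library and class with at least 20 cells (579222 to 29002164 UMIs) were tested with edgeR 4.0.16 (R 4.3.3; TMM, filterByExpr, glmQLFit) and, as an alternative, DESeq2 1.42.0. The edgeR fits were tested on simulated data, with the changed genes drawn from those with a mean over 10 CPM. Recovery was not measured for lower genes, among which are many members. A log2 difference of 1 was recovered for 4% of changed genes between stromal and tumour cells. The share was 8% between lines in tumour cells and 4% for the line by class term. In the same order, a log2 difference of 2 was recovered for 50%, 44% and 32%, and of 3 for 96%, 90% and 60%. Genes that did not pass may thus still differ. SE is the log2 difference over the root of F. Named genes are members passing a test, the member with the highest mean per family and class, and up to 4 pathway genes per list and direction with a mean of at least 10 CPM, of which 1 is not reported here. Gene models are GENCODE M21 on GRCm38. Libraries of the same number share the line, which pairs them: their deviations from the preparation means in tumour cells correlated at 0.51 over 8171 genes, the same for both lines by construction. Intervals (95%) and the floor of 3 UMIs cover counting error only.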

Additional observations from a re-analysis of the deposited data

Results flagged for a closer look

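In 6 members the stromal over tumour difference differed between the lines by a line by class term, or 10.2% of those tested against 9.46% of all genes, and 0 of 51 passed with whole KPC-4545 added. The log2 difference of ratios, KPC-4545 over KPC-3403, was -5.62 for Slit3, -4.84 for Sema3a, -2.48 for Efna5, 3.64 for Plxna4, 2.68 for Sema7a and 1.48 for Plxnb2. All 6 rest on the 58 stromal cells of enriched KPC-4545 and on 1 residual degree of freedom. The clusters that make up the stromal class differed between lines as well, and their part in these values was not tested.

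In 2 of 51 members with at least 10 UMIs in tumour cells, 1 of the 4 tumour samples stood far from the other 3; chance flags about 1 in 20. Slit3 was highest in enriched KPC-4545, at 34.9 CPM. Efna4 was highest in whole KPC-4545, at 30.1 CPM from 32 UMIs, against 11.1 to 11.9 CPM in the other 3. That sample also had the highest sum of acinar markers, at 3160 CPM, whose part was not tested.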

How the results depend on the processing

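The 25 member calls between stromal and tumour cells kept their direction in all alternatives in which they were tested. Leaving out whole KPC-4545 is counted among these alternatives but repeats the main fit, which that library had not entered. Plxnc1 alone kept its call in each of its tested alternatives, 12 of 21. In the main classes it had no tumour UMI and passed the filter through stromal counts alone, so this record is no sign of a firmer call. Of the other members, 10 lost the call in 1 alternative, 4 in 2 and 10 in 3 or more. From the main 18 higher and 7 lower, no low-count filter gave 12 lower, unnamed clusters added to their best-scoring class 1 higher and 0 lower, unnamed clusters with Krt18 in over 30% of cells counted as tumour 11 lower, fibroblast-like clusters only 11 higher, and all classes in 1 fit 5 higher of 30 tested. Leaving out a library gave 4 to 21 higher and 2 to 13 lower; both extremes come without an enriched library, KPC-3403 for the low and KPC-4545 for the high ones. Without the replicate block 13 were higher and 6 lower of 50 tested. Plxnb2, not called, changed sign in 4 alternatives: 0.37 without whole KPC-3403 and with enriched libraries only, 0.26 with fibroblast-like clusters only and 0.02 with all classes in 1 fit; leaving out a library gave -0.61 to 0.37.

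For the difference between lines, from 3 larger and 3 smaller ratios, no filter gave 1 larger, DESeq2 0 and 1, at least 10 cells 0 and 0, Leiden resolution 0.5 1 larger, unnamed clusters added 12 and 5 (where Plxna4 turned to -0.67), shared barcodes kept 5 larger, Krt18 clusters as tumour 1 and 0, and cells with Pecam1 or Cdh5 left out 5 larger. It could not be fitted without enriched KPC-4545, and without either KPC-3403 library it has no test.

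In tumour cells, between lines, no filter gave 2 higher and 7 lower of 61, DESeq2 1 higher, shared barcodes kept 1 higher and Krt18 clusters as tumour 2 higher; between preparations, no filter gave 2 higher and 2 lower and DESeq2 1 lower. Leaving out a library there leaves no test. Without the replicate block the preparation comparison again had 0 higher and 0 lower. In enriched KPC-3403, shares thinned to 1000 UMIs were higher in stromal cells for 37 of 73 members and higher in tumour cells for 21, and at 2000 UMIs for 34 and 27. No such count was made over all genes, so this split is not read as a trait of the members. Over all genes, 4.32% to 38.2% passed between stromal and tumour cells across the alternatives, 0.0985% to 15.4% for the difference between lines, 0% to 6.42% between lines in tumour cells and 0% to 3.12% between preparations. The alternatives on shared barcodes, Krt18 and endothelial markers were chosen after seeing the data. Causes were not tested. Depth limits the stromal values of KPC-4545, where 1 UMI is 1.73 CPM.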
